A study of Mus musculus with 18 samples.

Results

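The genes of glycolysis and of the response to low oxygen were followed in osteoblasts and their reference cells from 3 sources, as 36 of the 20200 genes listed in the count tables. They were chosen by symbol, in part because earlier results on these libraries had shown opposite effects in fresh bone and in bone chips. For the differences between GFP+ and GFP- cells in those 2 sources, sizes, errors and edgeR calls are therefore given as a description only. No p-value is given there for these genes and nothing is read from the calls. The rule of choice did not name the comparison of osteoblasts derived from embryonic stem cells (ESC) with ESC, which is read as a test. The genes were nevertheless listed with earlier results of these data known. All 36 genes were listed in each table and passed the filter on low counts in every comparison.

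The study isolated cells of Col2.3GFP mice, in which a fragment of the Col1a1 promoter drives GFP in maturing cells of the osteoblast lineage, and asked which genes mark osteoblasts of different origin. Poly-A RNA was sequenced from 6 populations with 3 libraries each. Fresh long bone gave GFP+ (hi) cells, labelled as osteoblasts, and a mixed GFP- population. Cultures of bone chips under osteogenic differentiation gave the same pair of populations. ESC carrying the transgene were compared with the GFP+ osteoblasts differentiated from them (ESC-OB GFP+). All groups carried the same transgene, the labels give no age or sex, and nothing in them says whether libraries of a group came from separate animals or cultures, so the spread between libraries may in part be technical. A treatment label gives osteogenic differentiation for ESC as well. GFP brightness defined the sorted osteoblasts, so a gene that follows Col1a1 promoter activity and a gene that follows maturation cannot be told apart here.

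Glycolysis splits glucose into pyruvate in the cytosol, and turning that pyruvate into lactate lets the pathway run without oxygen. Lack of oxygen slows the prolyl hydroxylases that mark the HIF alpha subunits for destruction. HIF then binds short motifs near its targets, among them most glycolytic genes, the lactate exporter Slc16a3, the mitophagy receptors Bnip3 and Bnip3l, and Vegfa, the main signal for vessel growth. Osteoblasts are known for a strong reliance on glycolysis, and growth plate cartilage for life in low oxygen.

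Promoters were searched for the letters of the motif that HIF binds. RefSeq windows of 300 bases on GRCm38.p6, from 250 bases before to 50 after a start site, were at hand for 32 of the 36 genes. The core of the hypoxia response element was searched as ACGTG and as GCGTG on both strands, where CACGTG holds ACGTG on both strands and counts in each. Taking the first window listed for each gene, 25 of these 32 genes (78.1%) held at least 1 match, against 43.8% of 27025 genes, and 17 (53.1%) held ACGTG itself, against 19.7%. The windows of these genes were also richer in G and C, with a median of 62.2% against 52.7% over all genes, so the share with a match is not a measure of HIF control. The windows of 4 genes with marked differences between populations and of Tpi1, which held no match, are printed 5′ to 3′ on the strand of the gene, with matches in capitals. Slc16a3 lies at chr11:120948817-120949116, Ldha at chr7:46845554-46845853 and Car9 at chr4:43506776-43507075, all on the plus strand, and Bnip3 at chr7:138909457-138909756 and Tpi1 at chr6:124814109-124814408 on the minus strand.
Slc16a3: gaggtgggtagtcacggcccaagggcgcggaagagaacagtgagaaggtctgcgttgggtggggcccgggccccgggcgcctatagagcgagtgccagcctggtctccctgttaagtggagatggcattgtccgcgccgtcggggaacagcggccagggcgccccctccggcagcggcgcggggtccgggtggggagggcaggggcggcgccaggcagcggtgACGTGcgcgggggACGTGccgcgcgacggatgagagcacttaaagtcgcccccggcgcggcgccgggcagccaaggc
Ldha: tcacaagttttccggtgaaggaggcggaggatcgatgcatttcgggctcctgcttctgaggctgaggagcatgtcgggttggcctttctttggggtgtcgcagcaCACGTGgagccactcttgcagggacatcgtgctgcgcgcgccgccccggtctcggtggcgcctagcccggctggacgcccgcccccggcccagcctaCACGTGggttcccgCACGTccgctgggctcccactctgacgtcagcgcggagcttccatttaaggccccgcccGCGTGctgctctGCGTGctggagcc
Bnip3: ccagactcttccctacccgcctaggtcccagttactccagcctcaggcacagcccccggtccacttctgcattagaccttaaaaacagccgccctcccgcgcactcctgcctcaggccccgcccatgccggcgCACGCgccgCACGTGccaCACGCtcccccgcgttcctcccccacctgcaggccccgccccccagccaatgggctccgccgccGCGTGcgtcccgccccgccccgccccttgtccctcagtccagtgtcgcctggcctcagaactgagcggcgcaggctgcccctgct
Car9: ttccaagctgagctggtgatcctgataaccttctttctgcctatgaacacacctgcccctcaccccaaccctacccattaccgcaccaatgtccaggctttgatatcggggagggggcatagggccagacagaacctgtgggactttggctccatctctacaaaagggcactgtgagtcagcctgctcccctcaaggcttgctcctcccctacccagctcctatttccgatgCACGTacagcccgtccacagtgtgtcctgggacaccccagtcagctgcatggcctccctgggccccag
Tpi1: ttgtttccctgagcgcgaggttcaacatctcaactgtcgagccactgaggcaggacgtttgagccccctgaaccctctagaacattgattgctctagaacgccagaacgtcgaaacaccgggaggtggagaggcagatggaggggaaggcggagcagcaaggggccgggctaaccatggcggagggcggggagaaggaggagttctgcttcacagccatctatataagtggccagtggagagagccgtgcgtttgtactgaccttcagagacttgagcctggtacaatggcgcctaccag
The upstream Ldha window held 7 matches, 5 of them ACGTG, and the Bnip3 window held 5, whereas Slc16a3 held 2 copies of ACGTG and Car9 held 1. A match describes letters and does not show that a factor was bound. The 4 genes without a window were Slc2a3, Epas1, Bnip3l and Ndrg1.

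Total counts ranged from 4920977 to 43874837 per library. Levels are given as CPM, counts relative to the library total after TMM scaling, which corrects for composition and was computed within each source, so that levels of different sources stand on different scales. Composition mattered, because Col1a1 alone took 36.2 to 37.5% of the counts of bone GFP+ (hi) cells and 12.1 to 14.4% of those of bone chip GFP+ (hi) cells. The ribosomal precursor Rn45s took 8.01 to 12.5% of each bone chip library and 0.0561 to 0.342% of each bone library. Its part in the differences between these sources was not tested. All 9 osteoblast markers were higher in GFP+ (hi) than in GFP- cells of bone and of bone chips. In ESC-OB GFP+ cells 6 of the 7 tested were higher than in ESC, but Alpl was lower, with a log2 fold change of -3.09 ± 0.53. Sp7 and Bglap did not pass the filter on low counts there. Bglap, which encodes the bone protein osteocalcin, reached at most 1.32 CPM. The bone GFP- population was rich in cartilage transcripts, with 107000 to 216000 CPM summed over 11 chondrocyte markers against 10800 to 13800 CPM in bone GFP+ (hi) cells, and 10 of the 11 were lower in the latter. Bone GFP+ (hi) libraries 1 and 3 held 0.192 and 0.241 CPM of the Y-linked Ddx3y, against 35.3 CPM in library 2 and 44.3 to 101 CPM in GFP- cells. In bone chips Ddx3y was at 0 CPM in GFP- and at most 0.083 CPM in GFP+ (hi) libraries. By this gene, sex differed in part between the bone groups and between bone and bone chips. Its part in those differences cannot be told apart. Bone chip GFP- library 2 held 2620 CPM of the macrophage and neutrophil gene Lyz2, against 312 and 233 CPM in the other GFP- libraries.

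In fresh bone, 25 of the 36 genes were lower and 3 higher in GFP+ (hi) than in GFP- cells at an adjusted p under 0.05 (edgeR), where over all genes tested 22.1% were lower and 19.5% higher (41.7% in either direction). In bone chips the balance was the other way, with 20 higher and 4 lower, where over all genes 20.4% were higher and 23.1% lower (43.5% in either direction). These counts follow from how the genes were picked and nothing is read from them. Their median log2 fold change was -1.70 in bone and 0.62 in bone chips, beside medians of 0 and -0.04 over all genes. By library totals alone, a scaling under which the median of all genes is -1.06 in bone and -0.60 in bone chips, 31 genes were lower and 0 higher in bone, and 8 were higher and 9 lower in bone chips, so the direction in bone chips is relative to the other genes. Over all genes this scaling gave 7789 lower and 696 higher of 12559 in bone, and 7921 lower and 1058 higher of 12841 in bone chips. Of the 36, 15 were called lower in bone and higher in bone chips, 0 were called higher in bone and lower in bone chips, and 24 had a negative sign in bone with a positive sign in bone chips. The genes were picked in part for such pairs, and the share of pairs over all genes was not worked out. Nothing is read from these joint counts either. In these bulk samples, fewer cells of a type and less RNA per cell cannot be told apart.

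**Figure D1:**
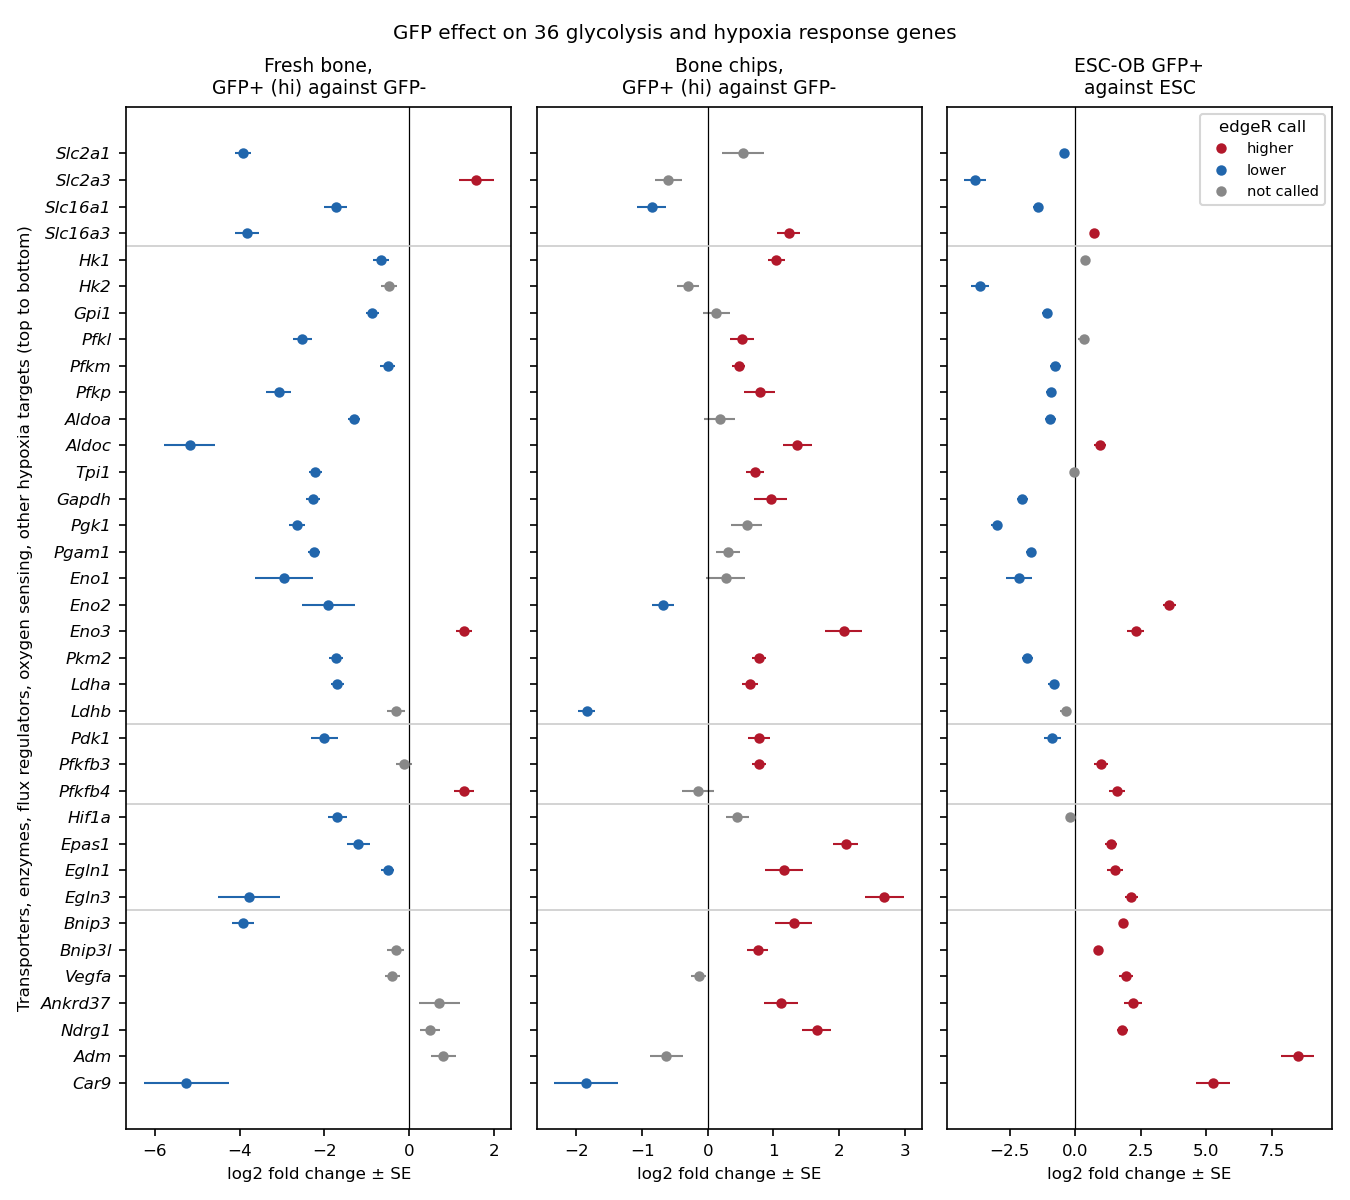
Log2 fold changes with standard errors of the 36 genes in 3 comparisons of 3 against 3 libraries, TMM-scaled, with a separate horizontal scale in each panel. Colours give the edgeR call at an adjusted p under 0.05. Most glycolytic enzymes lie left of 0 in bone and in ESC-OB and right of 0 in bone chips. By library totals alone 8 of the 36 are called higher in bone chips, beside 1058 of all 12841 genes tested. The genes listed as other hypoxia targets, at the bottom, lie right of 0 in ESC-OB. Most glycolytic enzymes are HIF targets too.

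Slc2a1 (GLUT1) is the housekeeping importer of glucose. Its level in bone was 193, 187 and 163 CPM in GFP- libraries and 13.6, 12.4 and 9.53 CPM in GFP+ (hi) libraries, a log2 fold change of -3.93 ± 0.19 (SE, n = 3 per group). In bone chips it was 316, 256 and 156 CPM in GFP- and 409, 423 and 228 CPM in GFP+ (hi) libraries, a log2 fold change of 0.54 ± 0.32. The bone groups lay far apart, and those of bone chips overlapped, since GFP+ (hi) library 3 was below both of the higher GFP- libraries. Chip libraries of the same number deviated together. Within these pairs Slc2a1 was higher in GFP+ (hi) cells in 3 of 3. With the number as a block, its log2 fold change was 0.55 ± 0.10. The genes were picked in part for opposite effects in these sources. Nothing is therefore read from this count or the smaller error, nor from the comparisons within pairs given below.

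Slc16a3 (MCT4) exports lactate from glycolytic cells. Fresh bone held 214, 169 and 176 CPM in GFP- and 11.7, 19.1 and 8.72 CPM in GFP+ (hi) libraries, a change of -3.83 ± 0.29 on the log2 scale. Bone chips held 136, 148 and 92.7 CPM in GFP- and 314, 283 and 286 CPM in GFP+ (hi) libraries, a change of 1.23 ± 0.18. The groups did not overlap in either source and ran in opposite directions. In the mm9 annotation 831 of its 5318 exon bases are shared with Csnk1d on the opposite strand, and 10 of the 36 genes share exon bases in this way, which counts made without strand could not separate. Slc2a3 (GLUT3), an importer of high affinity, ran against the rest. It stood at 2.97, 5.95 and 2.46 CPM in bone GFP- and 8.01, 10.7 and 15.5 CPM in bone GFP+ (hi) libraries (log2 fold change 1.58 ± 0.41), and at 7.14, 5.65 and 5.10 CPM in chip GFP- and 3.12, 4.15 and 4.47 CPM in chip GFP+ (hi) libraries (-0.60 ± 0.21). Again the groups did not overlap in either source. Bone GFP+ (hi) libraries also held a trace of pluripotency transcripts, 18.9 to 25.3 CPM summed over 7 genes against 0.229 to 0.660 CPM in bone GFP- libraries. This trace is 0.394% of the ESC level on average, and the same share of the Slc2a3 level of ESC would be 6.11 CPM, or 53.6% of the mean in bone GFP+ (hi) cells. Its part in the difference was not tested. Slc16a1 (MCT1), which carries lactate and pyruvate either way, was lower in both sources, with log2 fold changes of -1.73 ± 0.27 in bone and -0.85 ± 0.22 in bone chips.

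**Figure D2:**
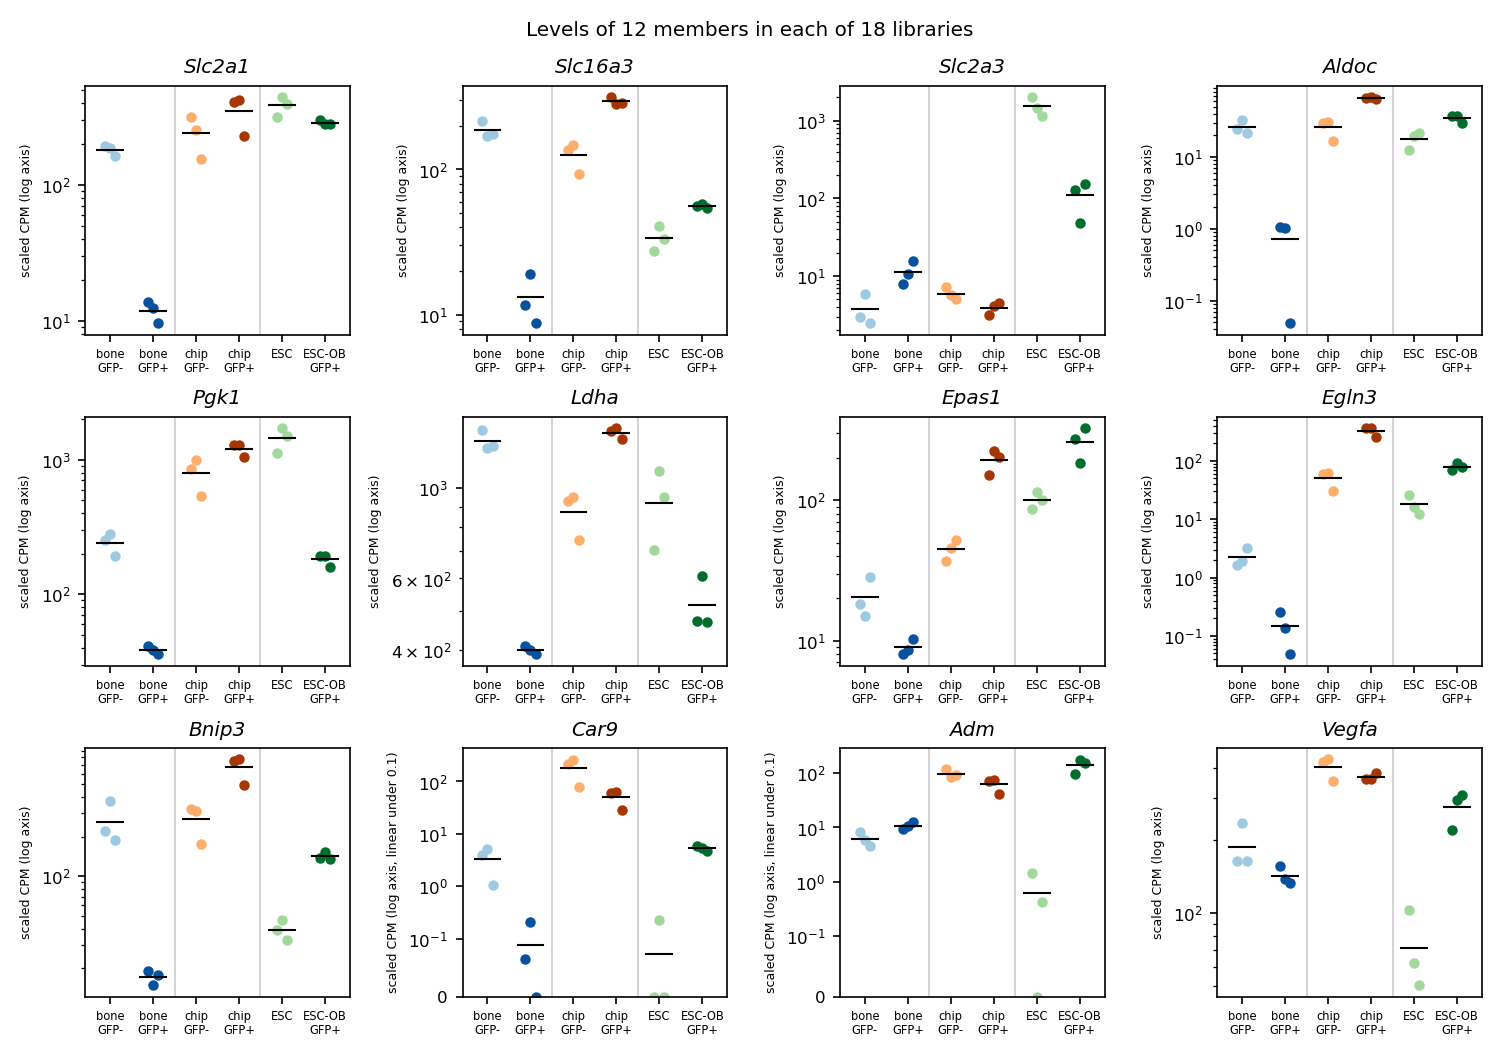
Levels of 12 genes in each of the 18 libraries as scaled CPM on log axes, with a linear stretch under 0.1 for Car9 and Adm. Points are libraries, bars are means of 3, and vertical lines part the 3 sources, which were scaled separately. For Slc2a1, Slc16a3, Aldoc, Pgk1, Ldha, Epas1, Egln3 and Bnip3 the bone GFP+ (hi) points lie below those of bone GFP- cells, while the chip GFP+ (hi) means lie above the chip GFP- means.

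Among the 18 glycolytic enzymes, 15 were called lower and 1 higher in bone, with a median log2 fold change of -1.82, and 10 were called higher and 2 lower in bone chips, with a median of 0.55. Over all genes 22.1% were lower and 19.5% higher in bone, and 20.4% were higher and 23.1% lower in bone chips. The enzymes belong to the genes picked, so nothing is read from their counts. Hexokinase traps glucose in the cell. Hk1, its constitutive form, stood at 145, 160 and 143 CPM in bone GFP- and 83.2, 79.9 and 118 CPM in bone GFP+ (hi) libraries, and at 153, 139 and 113 CPM in chip GFP- and 281, 296 and 254 CPM in chip GFP+ (hi) libraries. The groups were apart in both sources, with log2 fold changes of -0.67 ± 0.18 and 1.04 ± 0.13. Hk2, the inducible form, was called in neither source (-0.47 ± 0.19 and -0.30 ± 0.17).

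Phosphofructokinase commits the sugar to glycolysis. The liver-type subunit Pfkl was at 190, 245 and 182 CPM in bone GFP- and 41.8, 40.0 and 25.5 CPM in bone GFP+ (hi) libraries. In bone chips it was at 192, 186 and 128 CPM in GFP- and 266, 250 and 211 CPM in GFP+ (hi) libraries. Both pairs of groups were apart, by -2.52 ± 0.22 in bone and 0.52 ± 0.18 in bone chips on the log2 scale, and by library totals alone the sign in bone chips turned (-0.03). The platelet-type subunit Pfkp was at 66.8, 89.8 and 96.0 CPM in bone GFP- and 11.6, 12.4 and 5.97 CPM in bone GFP+ (hi) libraries, a change of -3.08 ± 0.29. In bone chips Pfkp was at 92.3, 84.6 and 54.1 CPM in GFP- and 153, 146 and 101 CPM in GFP+ (hi) libraries, a change of 0.79 ± 0.24. The muscle-type subunit Pfkm had smaller differences of the same signs (-0.51 ± 0.17 and 0.47 ± 0.10), the latter -0.08 by library totals alone.

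Aldolase splits the 6-carbon sugar, and Aldoc is the form of brain and of cells in low oxygen. Its bone libraries held 24.5, 32.5 and 21.4 CPM (GFP-) and 1.06, 1.02 and 0.0482 CPM (GFP+ (hi)), the last from a single count. Its chip libraries held 29.2, 30.9 and 16.8 CPM (GFP-) and 65.6, 67.4 and 64.0 CPM (GFP+ (hi)). The log2 fold changes were -5.18 ± 0.61 and 1.36 ± 0.22, with no overlap in either source, and Aldoc thus had the largest fall of the 18 enzymes in bone. The widespread form Aldoa and the isomerase Gpi1 fell in bone, with log2 fold changes of -1.30 ± 0.14 and -0.87 ± 0.15. Their groups overlapped in bone chips (0.18 ± 0.24 and 0.13 ± 0.21). Between chip libraries of the same number, Aldoa was higher in GFP+ (hi) cells each time (1020, 1130 and 817 CPM against 908, 1120 and 594 CPM). Gpi1 was not (450, 468 and 390 CPM against 436, 487 and 275 CPM).

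The next steps handle 3-carbon sugars. Triose phosphate isomerase, Tpi1, was at 431, 355 and 368 CPM in bone GFP- and 83.3, 77.3 and 87.6 CPM in bone GFP+ (hi) libraries, and at 428, 459 and 327 CPM and 688, 667 and 641 CPM in the corresponding chip libraries. Gapdh, which is often taken as a reference gene, was at 518, 432 and 556 CPM in bone GFP- and 108, 103 and 100 CPM in bone GFP+ (hi) libraries, and at 1550, 1710 and 941 CPM and 2920, 3070 and 2150 CPM in chips. For both genes the groups were apart in each source, with log2 fold changes of -2.22 ± 0.15 and 0.72 ± 0.14 for Tpi1 and of -2.27 ± 0.16 and 0.96 ± 0.25 for Gapdh. Pgk1, the first step to yield ATP, was at 255, 279 and 192 CPM in bone GFP- and 41.4, 38.4 and 35.7 CPM in bone GFP+ (hi) libraries (-2.65 ± 0.18). Its chip libraries held 850, 1000 and 541 CPM in GFP- and 1280, 1280 and 1040 CPM in GFP+ (hi) cells (0.59 ± 0.23), apart by a narrow margin. Pgam1, the mutase that follows, differed by -2.25 ± 0.15 in bone and by 0.31 ± 0.18 in bone chips, where its groups overlapped. Between chip libraries of the same number, Pgam1 was higher in GFP+ (hi) cells each time (626, 626 and 524 CPM against 499, 576 and 361 CPM).

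Enolase makes phosphoenolpyruvate, and its 3 genes differed in direction. The Eno1 row held at most 3.39 CPM in any library, while the row of its near-identical copy Eno1b held 74.6 to 1100 CPM, so how reads of the ubiquitous form were shared between the rows is not known and the Eno1 values (-2.95 ± 0.69 in bone, 0.27 ± 0.29 in bone chips) are uncertain. Eno2, the neuronal form, was lower in both sources (-1.91 ± 0.62 and -0.68 ± 0.17). Eno3, the muscle form, was higher in both, at 11.2, 13.5 and 15.3 CPM in bone GFP- against 30.2, 30.0 and 37.9 CPM in bone GFP+ (hi) libraries and 4.36, 3.68 and 5.29 CPM in chip GFP- against 17.3, 13.1 and 25.9 CPM in chip GFP+ (hi) libraries. Its log2 fold changes were 1.29 ± 0.19 and 2.07 ± 0.28, and it was the 1 gene of the 36 called higher in both.

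Pyruvate kinase closes the pathway. Its gene, Pkm, listed as Pkm2, was at 1690, 1980 and 1590 CPM in bone GFP- and 476, 540 and 569 CPM in bone GFP+ (hi) libraries, and at 1590, 1610 and 1350 CPM and 2690, 2490 and 2620 CPM in chips. Ldha, which turns pyruvate to lactate, was at 1390, 1250 and 1270 CPM in bone GFP- and 410, 400 and 391 CPM in bone GFP+ (hi) libraries, and at 927, 948 and 747 CPM and 1380, 1400 and 1320 CPM in chips. Neither gene overlapped between groups in either source, with changes of -1.73 ± 0.17 and 0.78 ± 0.11 for Pkm2 and of -1.70 ± 0.15 and 0.64 ± 0.12 for Ldha on the log2 scale. Ldhb, the heart form that favours pyruvate, broke from Ldha. It was not called in bone (-0.31 ± 0.21, groups overlapping) and fell in bone chips from 31.9, 26.3 and 29.1 CPM to 8.80, 8.55 and 7.10 CPM (-1.84 ± 0.13). Many glycolytic genes have processed copies elsewhere in the genome, and how reads that fit several places were treated is not stated.

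Pdk1 inhibits pyruvate dehydrogenase, which feeds pyruvate into mitochondrial oxidation. It was at 49.2, 50.6 and 27.3 CPM in bone GFP- and 8.37, 15.1 and 8.57 CPM in bone GFP+ (hi) libraries (-2.0 ± 0.31 on the log2 scale). In bone chips it was at 124, 115 and 82.7 CPM in GFP- and 200, 191 and 160 CPM in GFP+ (hi) libraries (0.78 ± 0.17). The groups were apart in both, and GFP+ (hi) library 2 of bone stood above the other 2. The bifunctional enzymes Pfkfb3 and Pfkfb4, which set the level of the activator of phosphofructokinase, did not share this pattern. Pfkfb3 was not called in bone (-0.12 ± 0.19) and higher in chip GFP+ (hi) cells (0.78 ± 0.10), and Pfkfb4 was higher in bone GFP+ (hi) cells (1.29 ± 0.24) and not called in bone chips (-0.15 ± 0.24).

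Of the oxygen sensing genes all 4 were called lower in bone and 3 higher in bone chips, beside 22.1% and 20.4% of all genes. These genes too were picked, and nothing is read from their counts. Epas1 encodes HIF-2 alpha. Its bone libraries held 18.3, 15.0 and 28.4 CPM in GFP- and 7.98, 8.61 and 10.3 CPM in GFP+ (hi) cells, and its chip libraries held 37.0, 45.6 and 52.3 CPM and 151, 226 and 203 CPM. Both pairs of groups were apart, with log2 fold changes of -1.20 ± 0.27 and 2.10 ± 0.19. Hif1a, which encodes HIF-1 alpha and is mainly controlled at the protein, changed by -1.70 ± 0.22 in bone and 0.45 ± 0.18 in bone chips.

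The prolyl hydroxylase genes Egln1 and Egln3 mark HIF for destruction and are themselves HIF targets. Egln1 was at 77.1, 72.6 and 60.7 CPM in bone GFP- and 49.6, 54.2 and 44.4 CPM in bone GFP+ (hi) libraries, and at 145, 147 and 75.4 CPM and 297, 321 and 202 CPM in chips (-0.51 ± 0.16 and 1.16 ± 0.29). Egln3 was scarce in bone, at 1.65, 1.94 and 3.16 CPM in GFP- and 0.256, 0.137 and 0.0482 CPM in GFP+ (hi) libraries, the latter from 8, 2 and 1 counts. In bone chips it was abundant, at 59.6, 62.2 and 30.4 CPM in GFP- and 362, 360 and 257 CPM in GFP+ (hi) libraries. The Egln3 changes of -3.79 ± 0.73 and 2.69 ± 0.30 on the log2 scale had opposite signs with no overlap of groups, and the rise in bone chips was the largest of the 36 genes.

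Bnip3 guides the removal of mitochondria. It was at 220, 371 and 190 CPM in bone GFP- and 19.0, 14.8 and 17.8 CPM in bone GFP+ (hi) libraries (-3.92 ± 0.27). In bone chips it was at 322, 314 and 177 CPM in GFP- and 753, 773 and 492 CPM in GFP+ (hi) libraries (1.31 ± 0.28). Both pairs of groups were apart in opposite directions. Its relative Bnip3l was not called in bone (-0.32 ± 0.20, groups overlapping) and rose in bone chips (0.76 ± 0.16).

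The secreted and cell surface targets went other ways. Adm, the vessel-dilating peptide adrenomedullin, was at 8.25, 5.83 and 4.56 CPM in bone GFP- and 9.20, 10.6 and 12.7 CPM in bone GFP+ (hi) libraries, and at 118, 83.1 and 92.8 CPM and 72.5, 75.9 and 41.1 CPM in chips. Its differences of 0.80 ± 0.30 and -0.63 ± 0.25 had the reverse signs of most genes and neither was called. Car9, the carbonic anhydrase that exports acid at the cell surface, was lower in GFP+ (hi) cells of both sources, from 3.96, 5.03 and 1.05 CPM to 0.0641, 0.205 and 0 CPM in bone (2, 3 and 0 counts in GFP+ (hi)) and from 215, 259 and 77.4 CPM to 59.9, 64.0 and 28.8 CPM in chips. The log2 fold changes were -5.26 ± 1.00 and -1.85 ± 0.49, and GFP- library 3 was the lowest of its group in both sources. Vegfa was called in neither source (-0.40 ± 0.18 and -0.14 ± 0.11). Ankrd37 and Ndrg1, further HIF targets, were called higher in bone chips (1.12 ± 0.26 and 1.66 ± 0.22) and not in bone (0.71 ± 0.49 and 0.49 ± 0.23).

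**Figure D3:**
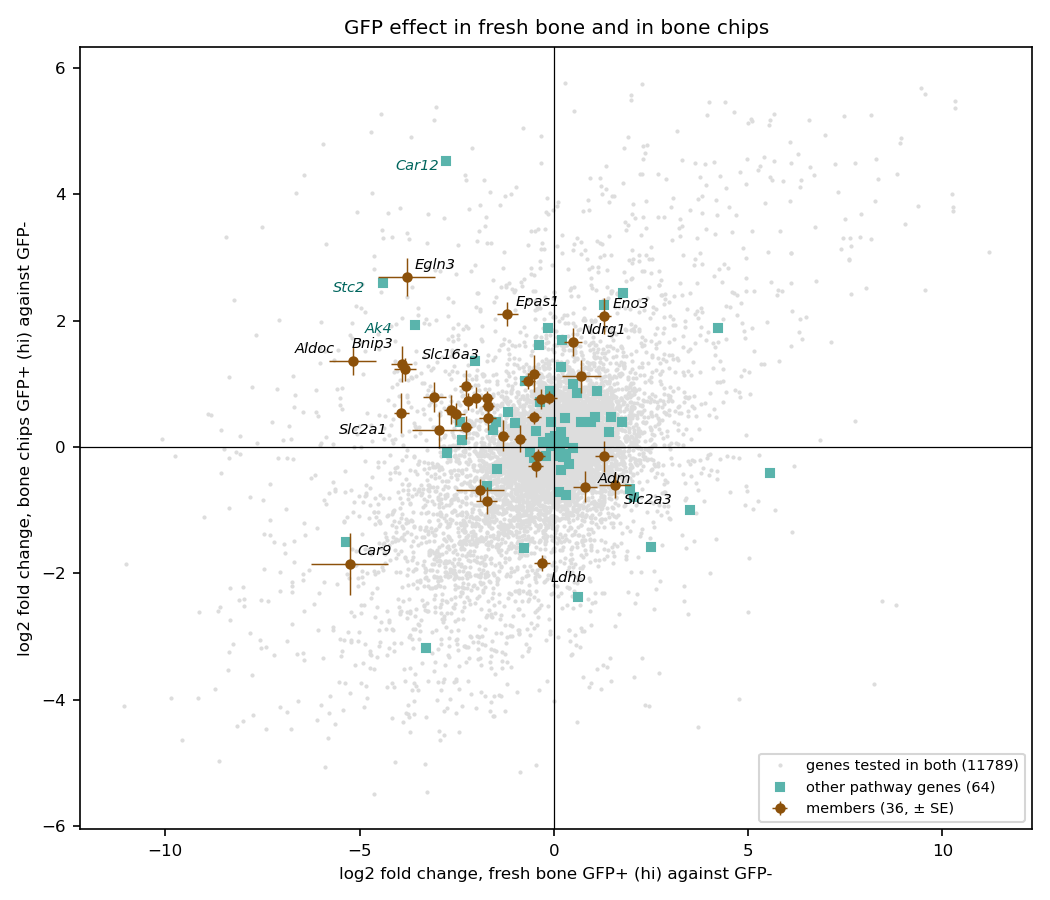
Log2 fold change between GFP+ (hi) and GFP- cells in fresh bone (horizontal) and bone chips (vertical), TMM-scaled, for 11789 genes tested in both (grey), 64 other glycolysis and hypoxia genes (squares) and the 36 members (circles, with standard errors). The members were picked in part for lying in the upper left, where Egln3, Aldoc, Bnip3 and Slc16a3 lie, with Car12, Stc2 and Ak4 of the other genes. By library totals alone the median of all genes lies at -1.06 in bone and -0.60 in bone chips.

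Several measures moved with the difference in bone. The chondrocyte markers fell by a median of 7.32 on the log2 scale, the 8 cell cycle genes were all lower (median -2.38), and the 3 B lymphoid markers tested were lower, with sums over 5 genes of 25.5 to 105 CPM in GFP- and 14.3 to 17.1 CPM in GFP+ (hi) libraries of bone. Of the stratified epithelium markers, 2 of 3 tested were lower in bone GFP+ (hi) cells, and the sum over 6 genes was 128 to 142 CPM in GFP- and 1.44 to 3.11 CPM in GFP+ (hi) libraries, while the defining keratins Krt5 and Krt6a were at 0 in the latter and at most 0.458 CPM in the former. In bone chips 7 of 8 cell cycle genes were lower in GFP+ (hi) cells, chondrocyte markers were split with 2 higher and 5 lower of 11, and neutrophil and myeloid markers summed to 274 to 3080 CPM in GFP- against 401 to 631 CPM in GFP+ (hi) libraries. Their part in the differences of the 36 genes was not tested. Without the bone GFP+ (hi) libraries 1 and 3, which were low in Ddx3y, the bone fold changes of 33 of the 36 genes moved by less than the spread between libraries. Those of 3 moved by more. That fit rests on 1 GFP+ (hi) library with no spread of its own, which is assumed to vary like the GFP- libraries, so counts of its calls are not given. Without chip GFP- library 2, 21 were higher and 5 lower in bone chips, beside 2848 and 3084 of all 13074 genes tested. The count of genes lower in bone chips was 1 without GFP- library 1, 3 without GFP- library 3 and 2 without any single GFP+ (hi) library. Over all genes, 2198 to 3084 were lower when any 1 chip library was left out.

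ESC-derived osteoblasts gave a comparison that the rule for picking the genes did not name. The genes and their sublists were still drawn up with earlier results of these data known. Glycolytic enzymes were mostly lower in ESC-OB GFP+ cells than in ESC, whereas the 7 genes listed as other hypoxia targets (Bnip3, Bnip3l, Vegfa, Ankrd37, Ndrg1, Adm and Car9) were higher. Most glycolytic genes are HIF targets too, so these 7 do not stand for the hypoxia response as a whole. Of the 36 genes 16 were higher (44.4%) and 15 lower (41.7%), beside 43.0% and 34.7% (77.7% in either direction) of all 15417 genes tested, so the number called is near that of genes at large. Of the 18 enzymes 11 were lower and 3 higher (median -0.88), and of the 7 other hypoxia targets all were higher (median 1.94), beside a median of 0.22 over all genes. By library totals alone 18 were higher and 13 lower, beside 7305 and 4839 of all 15417 genes. Adjusted p-values are those of edgeR over all genes tested.

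Hk2, the inducible hexokinase, fell from 326, 488 and 441 CPM in ESC to 19.6, 49.5 and 31.4 CPM in ESC-OB GFP+ libraries, a log2 fold change of -3.64 ± 0.33 (adjusted p = 2.23e-06). Slc2a3 fell from 2010, 1480 and 1160 CPM to 127, 48.0 and 154 CPM (-3.82 ± 0.41, adjusted p = 8.66e-06). Pgk1 fell from 1130, 1710 and 1490 CPM to 193, 193 and 159 CPM (-2.99 ± 0.21, adjusted p = 4.17e-07). These 3 genes had no overlap between groups and the largest falls of the 36. Gapdh fell from 2270, 2830 and 2360 CPM to 638, 706 and 499 CPM (-2.02 ± 0.21, adjusted p = 5.98e-06). The Eno1 row fell from 1.47, 3.39 and 1.68 CPM to 0.587, 0.456 and 0.483 CPM (-2.15 ± 0.50, adjusted p = 0.00231), and the copy that holds most of its reads, Eno1b, went from 775, 1100 and 987 CPM to 255, 238 and 241 CPM. Pkm2 (-1.84 ± 0.21), Pgam1 (-1.69 ± 0.20), Slc16a1 (-1.44 ± 0.19) and Gpi1 (-1.09 ± 0.17) were lower too, and Aldoa (-0.95 ± 0.20), Pfkp (-0.93 ± 0.19), Ldha (-0.83 ± 0.21) and Pfkm (-0.76 ± 0.20) fell by less.

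The enolases of nerve and muscle rose. Eno2 was at 7.56, 6.22 and 4.82 CPM in ESC and 58.4, 96.2 and 69.8 CPM in ESC-OB GFP+ libraries (3.59 ± 0.25, adjusted p = 3.95e-07). Eno3 was at 3.13, 4.0 and 2.09 CPM in ESC and 12.9, 14.4 and 20.2 CPM in ESC-OB GFP+ libraries (2.30 ± 0.33, adjusted p = 7.78e-05). Aldoc was higher as well (0.94 ± 0.23, adjusted p = 0.00306), as was the lactate exporter Slc16a3 (0.73 ± 0.18, adjusted p = 0.00331). Hk1, Pfkl, Tpi1, Ldhb and Hif1a were not called, although Hk1 (0.39 ± 0.17, adjusted p = 0.0523) was under 7 alternatives, DESeq2 among them (adjusted p = 0.0366), and Pfkl (0.32 ± 0.20) was by library totals alone (adjusted p = 0.0191) and without ESC-OB GFP+ library 2 (adjusted p = 0.0269). The call for Pfkm was lost without ESC-OB GFP+ library 3 (adjusted p = 0.0527). The call for Slc2a1 (-0.42 ± 0.17, adjusted p = 0.0418) was lost under several alternatives, with an adjusted p of 0.0658 with the replicate number as a block and of 0.0528 to 0.146 without 1 of 4 libraries. That for Pdk1 (-0.87 ± 0.31, adjusted p = 0.0237) was lost without any of 5 single libraries, with an adjusted p of 0.0601 to 0.122.

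Adm had the largest rise. It was listed with 8, 0 and 2 counts in ESC and 2767, 3845 and 3805 counts in ESC-OB GFP+ libraries, or 1.47, 0 and 0.419 CPM and 95.6, 175 and 153 CPM, a log2 fold change of 8.49 ± 0.64 (adjusted p = 6.29e-07). Car9 was close to absent in ESC, with 0, 4 and 0 counts, and reached 5.91, 5.25 and 4.67 CPM in ESC-OB GFP+ libraries (5.26 ± 0.65, adjusted p = 2.73e-05). In both genes every ESC-OB GFP+ library stood far above every ESC library. Egln3 rose from 26.0, 16.3 and 12.4 CPM to 70.2, 91.8 and 78.0 CPM (2.14 ± 0.25, adjusted p = 1.76e-05), and Ankrd37 from 1.84, 1.89 and 2.30 CPM to 6.53, 10.6 and 10.4 CPM (2.20 ± 0.35, adjusted p = 0.00019). Vegfa (1.94 ± 0.26), Bnip3 (1.84 ± 0.17), Ndrg1 (1.80 ± 0.21) and Bnip3l (0.86 ± 0.15) completed the set, and Egln1 (1.51 ± 0.31) and Epas1 (1.37 ± 0.22) rose with them on the log2 scale. ESC-OB GFP+ libraries also held 3060 to 6300 CPM summed over 7 stratified epithelium markers, against 19.7 to 25.4 CPM in ESC, and cell cycle genes were lower in them (8 of 8). Neutrophil and myeloid markers summed over 9 genes to 742 to 921 CPM in ESC-OB GFP+ and 0.209 to 0.922 CPM in ESC libraries. The 4 tested, Ltf, Lyz2, Csf1r and Itgam, were higher. The other 5, S100a8, S100a9, Mpo, Elane and Camp, did not pass the filter on low counts in this comparison and were not tested. Reads of the ribosomal precursor Rn45s made up 5.72 to 7.95% of each ESC library, against 0.29 to 0.69% of the ESC-OB GFP+ libraries. Their part in these differences was not tested.

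Ratios of counts between relatives within a library do not depend on scaling and can be set side by side across sources, as changes and not as levels, since gene lengths differ. The Slc2a3 to Slc2a1 ratio, on the log2 scale, was -6.02 to -4.96 in bone GFP- and -0.76 to 0.70 in bone GFP+ (hi) libraries, and -5.50 to -4.92 in chip GFP- against -7.01 to -5.66 in chip GFP+ (hi) libraries. The ratio of ESC was 1.55 to 2.66, above all of these. For lactate dehydrogenase the Ldhb to Ldha ratio fell in chip GFP+ (hi) cells, from -5.17 to -4.68 down to -7.53 to -7.29, and was higher in bone GFP+ (hi) cells, at -4.83 to -4.07 against -5.85 to -5.60. The Bnip3 to Bnip3l ratio was 1.59 to 2.0 in bone GFP- and -2.10 to -1.48 in bone GFP+ (hi) libraries, against 0.61 to 1.09 and 1.31 to 1.57 in the chip groups. The Epas1 to Hif1a ratio was higher in ESC-OB GFP+ cells, at 0.32 to 1.09, than in ESC, at -0.97 to -0.64, and higher in chip GFP+ (hi) cells, at -1.97 to -1.22, than in chip GFP- cells, at -3.60 to -2.78, whereas the bone groups overlapped. The Hk2 to Hk1 ratio fell in chip GFP+ (hi) and in ESC-OB GFP+ cells and overlapped between the bone groups.

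**Figure D4:**
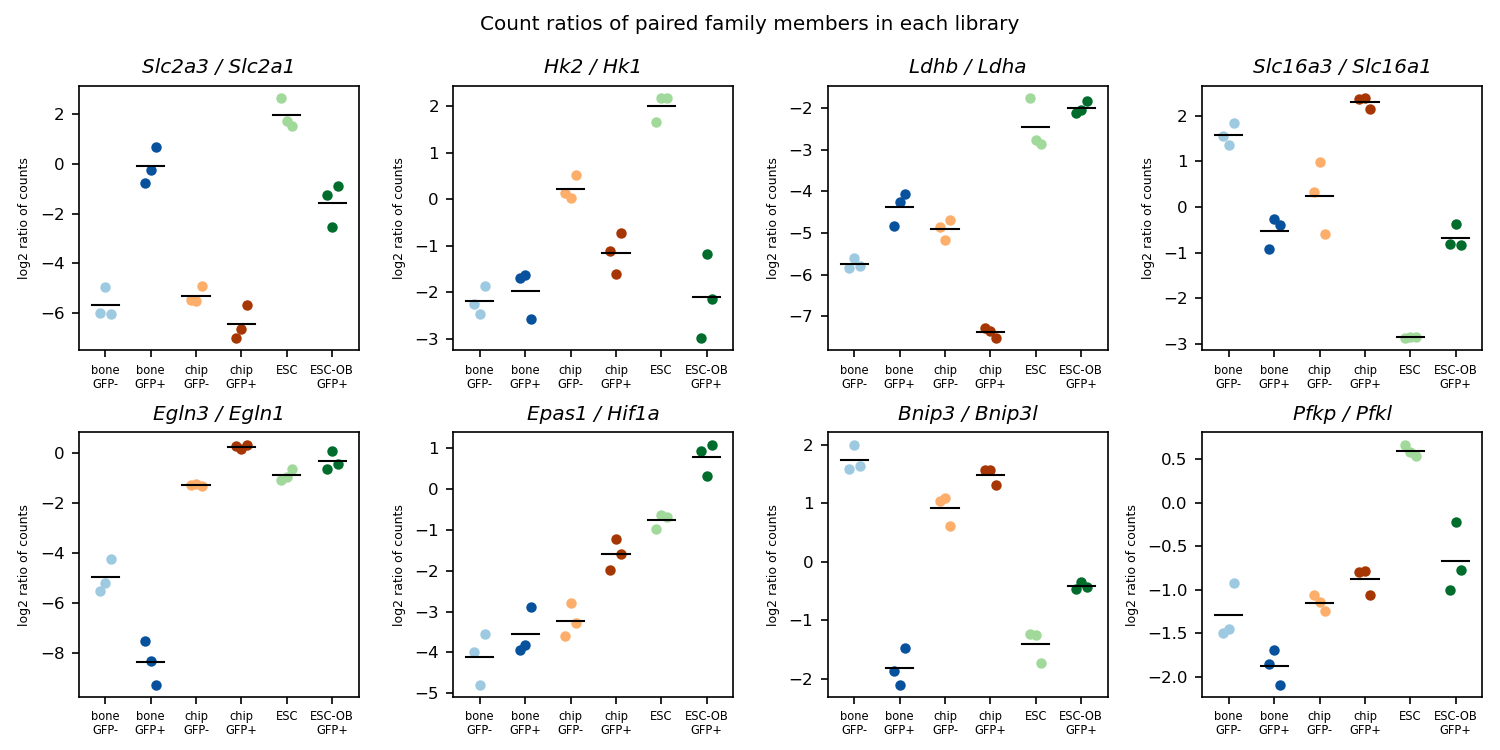
Log2 ratio of counts of 8 pairs of related genes in each library, with 0.5 added to each count, points for libraries and bars for means of 3. Ratios are not corrected for gene length, so only differences between populations are read, such as the higher Slc2a3 to Slc2a1 ratio in bone GFP+ (hi) than in bone GFP- libraries.

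Genes of the same pathways outside the 36 were listed with earlier results known too, but were not picked by their effects, and 79 of 80 were found. In bone 14 of 69 tested were higher (20.3%) and 21 lower (30.4%), beside 19.5% and 22.1% of all genes, with a median log2 fold change of -0.08. In bone chips 21 of 67 were higher (31.3%) and 11 lower (16.4%), beside 20.4% and 23.1% of all genes, with a median of 0.17. Of the hypoxia targets among them 41.9% were lower and 22.6% higher of 31 in bone, and 37.5% higher and 9.38% lower of 32 in bone chips. Of the genes of sugar and pyruvate handling 6 were higher and 3 lower of 19 in bone, against 5 higher and 6 lower of the 19 in chips. The lists were not tested against each other or against all genes. By library totals alone 7 were higher and 46 lower in bone, and 14 were higher and 30 lower in bone chips. Over all genes that scaling gave 696 higher and 7789 lower of 12559 in bone, and 1058 higher and 7921 lower of 12841 in bone chips. Of the 71 in the fit over both sources, 33 had a GFP effect that differed between bone and bone chips, 23 of them more negative in bone, beside 15.6% of all genes more negative and 14.7% more positive (30.3% in either direction).

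Car12, a further carbonic anhydrase of the cell surface, was at 282, 291 and 235 CPM in bone GFP- and 28.2, 32.5 and 56.1 CPM in bone GFP+ (hi) libraries (-2.79 ± 0.26, adjusted p = 3.44e-05). In bone chips it was at 18.6, 50.8 and 31.8 CPM in GFP- and 748, 710 and 869 CPM in GFP+ (hi) libraries (4.52 ± 0.37, adjusted p = 0.000149). The effects differed between the sources by -7.32 ± 0.48 (adjusted p = 5.51e-07), and Car12 thus ran opposite to Car9 in bone chips. Car12 was named with its opposite calls known, so the p-value of this difference follows in part from that choice. Stc2, a secreted stanniocalcin, was at 48.3, 32.9 and 33.7 CPM and 2.37, 1.91 and 1.11 CPM in bone GFP- and GFP+ (hi) libraries, and at 19.2, 19.0 and 9.14 CPM and 102, 94.3 and 87.6 CPM in chips (-4.39 ± 0.31 and 2.59 ± 0.28, adjusted p = 6.48e-06 and 0.000469). The mitochondrial adenylate kinase Ak4, listed as Ak3l1, fell in bone (-3.57 ± 0.27, adjusted p = 8.43e-06) and rose in bone chips (1.93 ± 0.17, adjusted p = 0.000222). Higd1a, a mitochondrial survival factor, did the same (-2.03 ± 0.17 and 1.36 ± 0.21, adjusted p = 1.46e-05 and 0.002), as did Bsg, the partner that brings lactate transporters to the membrane (-0.74 ± 0.15 and 1.05 ± 0.24, adjusted p = 0.00376 and 0.0118). The Bsg call was lost in bone without GFP+ (hi) libraries 1 and 3, which leaves 1 library in that group, with a fold change of -0.61 ± 0.28 (adjusted p = 0.140), and in bone chips by library totals alone (adjusted p = 0.0943).

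Not all ran this way. The reverse pair of calls, higher in bone and lower in bone chips, was found for Angptl4, an inhibitor of lipoprotein lipase, and for the pyruvate transporter Slc16a7. Angptl4 was at 15.1, 12.8 and 13.9 CPM in bone GFP- and 42.6, 58.1 and 62.8 CPM in bone GFP+ (hi) libraries, and at 122, 84.0 and 107 CPM and 70.2, 61.0 and 65.9 CPM in chips (1.97 ± 0.20 and -0.67 ± 0.15, adjusted p = 4.91e-05 and 0.00971). Slc16a7 was scarce, at no more than 5.59 CPM in bone and bone chips (2.49 ± 0.53 and -1.58 ± 0.32, adjusted p = 0.00459 and 0.00678). Lox, which cross-links collagen, rose in bone from 51.5, 47.0 and 45.4 CPM to 2310, 2300 and 2160 CPM (5.55 ± 0.18, adjusted p = 8.99e-08) and stood at 7460, 5270 and 9000 CPM and 5910, 5240 and 5130 CPM in chips, where the groups overlapped. Pgf, a growth factor related to Vegfa, rose in bone (3.51 ± 0.32, adjusted p = 2.99e-05). Pdk4, the pyruvate dehydrogenase kinase of fasting, rose in bone from 4.07, 4.35 and 5.61 CPM to 72.1, 112 and 79.1 CPM (4.23 ± 0.24, adjusted p = 1.8e-06) and also in bone chips (1.89 ± 0.19, adjusted p = 0.000349), whereas Pdk1 was lower in bone. Emb, another partner of lactate transporters, fell in both (-3.28 ± 0.17 and -3.19 ± 0.27, adjusted p = 1.1e-06 and 0.000165). In bone chips Insig2, a brake on sterol synthesis (2.43 ± 0.09, adjusted p = 1.73e-05) and the collagen cross-linker Loxl2 (2.24 ± 0.17, adjusted p = 0.000122) rose and the pyruvate dehydrogenase phosphatase Pdp1 fell (-2.37 ± 0.18, adjusted p = 0.000107).

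In ESC-OB GFP+ cells 46 of 76 tested genes of this second list were higher and 17 lower than in ESC, beside 43.0% and 34.7% of all genes. Lox went from 0.184, 0.277 and 0 CPM in ESC to 775, 1340 and 1230 CPM (12.34 ± 0.45, adjusted p = 9.97e-09). Flt1, a receptor of Vegfa, went from 0.553, 0.388 and 0.209 CPM to 74.3, 81.0 and 89.4 CPM (7.68 ± 0.28, adjusted p = 9.72e-09), and the collagen prolyl hydroxylase gene P4ha2 from 7.19, 7.55 and 5.03 CPM to 665, 449 and 712 CPM (6.49 ± 0.28, adjusted p = 1.69e-08). The transporter Slc2a10 had 0 counts in all ESC libraries and 18.4, 29.5 and 26.9 CPM in ESC-OB GFP+ libraries, at least 230-fold higher against a floor of 3 counts over the ESC group. Hkdc1, a hexokinase relative, had 2 counts over the ESC libraries and 131, 45.6 and 110 CPM in ESC-OB GFP+ libraries, a ratio of 1400 (95% exact counting interval 389 to 11600). Slc2a12 had 3 counts over ESC and 17.4, 9.04 and 13.2 CPM, a ratio of 128 (43.7 to 622), and these intervals and the floor cover counting error only.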

How the data were processed

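RNA was poly-A selected and sequenced from 18 libraries in 6 groups, as the labels assign them. The authors deposited raw read counts per gene in 3 tables, 1 per source, and the submitters' processing notes name STAR 2.4.2a, R 3.2.2, DESeq2 and the build mm9. The counting tool, its strand setting and its treatment of reads with several matches are not given in the sources used here. Each table was fitted alone with edgeR 4.0.16 (limma 3.58.1, R 4.3.3): filterByExpr with a minimum count of 10, TMM factors and the quasi-likelihood test, with Benjamini-Hochberg adjustment over all genes tested and a threshold of 0.05. A further fit over the 12 libraries of bone and bone chips tested whether the GFP effect differed. Errors are standard errors, taken as the log2 fold change over the square root of F. The fits were tested on simulated data.

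The 36 genes and all lists were chosen with earlier results of these data known. Every library was printed for members with opposite differences of at least 0.5 on the log2 scale in bone and bone chips, or of at least 2 in ESC-OB GFP+ cells. Of the other genes, the 6 with the largest called change per comparison and a mean of at least 10 CPM in the higher group, and those with opposite calls were named. A few further genes were given for contrast with a relative. Total counts of 4920977 to 43874837 set the precision. Alternatives were DESeq2 1.42.0, other scalings and filters, a replicate block, a joint fit and leaving out libraries. In bone chips libraries with the same number deviated together (correlations 0.158, 0.329 and 0.396), so the numbers pair them there, and in bone and ESC they did not (-0.022 to 0.03).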

Additional observations from a re-analysis of the deposited data

Results flagged for a closer look

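The GFP effect differed between fresh bone and bone chips, by the interaction test of edgeR at an adjusted p under 0.05, for 33 of the 71 other glycolysis and hypoxia genes, with 10 more positive (14.1%) and 23 more negative (32.4%) in bone. Over all genes tested 14.7% were more positive and 15.6% more negative (30.3% in either direction). The share more positive is thus near that of genes at large. The effect of Slc16a7 in bone minus that in bone chips was 4.07 on the log2 scale (adjusted p = 0.000277), that of Angptl4 was 2.64 (adjusted p = 8.84e-06), that of Lox was 5.98 (adjusted p = 7.2e-08) and that of Pgf was 4.51 (adjusted p = 7.27e-05). In the other direction it was -1.80 for Bsg (adjusted p = 0.000465), -3.40 for Higd1a (adjusted p = 1.71e-06), -5.49 for Ak4, listed as Ak3l1 (adjusted p = 1.66e-07), -6.99 for Stc2 (adjusted p = 4.15e-07) and -7.32 for Car12 (adjusted p = 5.51e-07). Slc16a7, Angptl4, Bsg, Higd1a, Ak4, Stc2 and Car12 had opposite calls in these same libraries, and Lox and Pgf were named for large changes. The p-values of these named genes therefore follow in part from how they were named. Bone and bone chips were separate libraries of different handling. The Y-linked Ddx3y was near 0 in all bone chip libraries but not in bone GFP- cells. Source, culture and sex therefore cannot be told apart.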

How the results depend on the processing

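Library totals without factors moved most counts. In bone 0 of the 36 genes were then higher, against 3, and 7 other pathway genes were higher and 46 lower, against 14 and 21. In bone chips 8 of the 36 were higher and 9 lower, against 20 and 4, and 30 other genes were lower, against 11. Over all genes 696 were then higher and 7789 lower of 12559 in bone, and 1058 higher and 7921 lower of 12841 in bone chips. For Pfkl and Pfkm the sign in bone chips turned, to -0.03 and -0.08 on the log2 scale. The effect was more positive in bone for 2 of the 36, against 4, and for 6 other genes, against 10, and 3 of the 36 had the higher mean in bone GFP+ (hi) cells, against 6. Over all 13574 genes the effect was then more positive for 1021, against 1991. Without bone GFP+ (hi) libraries 1 and 3, a fit with 1 library left in that group, assumed to vary like the GFP- libraries, 12 other genes were lower in bone, against 21, and the joint fit of 18 libraries gave 7 lower in bone chips, against 11. Leaving out 1 library gave 1 to 5 of the 36 lower in bone chips, with 1 without GFP- library 1 and 2 without any GFP+ (hi) library, beside 2198 to 3084 over all genes. With the replicate number as a block, 23 of the 36 were higher and 5 lower in bone chips, 3 and 23 in bone, and 16 and 14 in ESC-OB GFP+ cells, where the call for Slc2a1 was lost. Of 1095 tested values of single genes under alternatives, 1069 kept direction and side of the threshold, 17 lost and 9 gained a call. These values cover the 36 genes in ESC-OB GFP+ cells and, of the other genes, only those named, 6 to 11 per comparison. The named genes were picked for large or opposite calls, so their stability in part follows from that choice. Of 1797 values of the 36 genes in bone, bone chips and their difference, for which calls were not compared, 1688 moved by less than the spread between libraries, 107 by more and 2 turned. Most of these came from library totals without factors. Under that scaling 35 of the 36 genes moved by more than the spread in bone, 33 in bone chips and 29 in the difference, and the 2 that turned were in bone chips. Counts of 10 or fewer, as for Egln3 and Car9 in bone GFP+ (hi) cells, limit those folds.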
